A study of Mus musculus with 10 samples.

Results

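The proteasome genes of the mouse heart were compared between 5 training and 5 sedentary hearts. The members were the protein-coding genes whose symbol is Psm, a letter from a to g and a number, and 51 of the 56748 genes in the count tables met this rule. They lie on 16 chromosomes and were divided by role into 7 alpha and 7 beta subunits of the core particle, 6 ATPase and 11 non-ATPase subunits of the regulatory particle, 6 immunoproteasome genes, 3 other activators or inhibitors, 7 assembly factors, 2 core subunits known from testis or thymus, and 2 genes that match the rule by name without coding for a subunit. The training mice were wild-type male C57BL/6 animals, bought at 8 weeks of age, that rested and were acclimatized and then ran on a small-animal treadmill at 15 m/min for 120 min per day on 5 days a week for 8 weeks. The sedentary mice were also wild-type male C57BL/6 animals, of the same age, that did not train. The study assigned its mice to training or no training at random. The time between the last session and tissue collection was not given in the sources used here. Each library held poly-A RNA of 1 whole heart, atria and ventricles together. Reads assigned to genes numbered 29461697 to 35945417 in the training hearts (median 34231778) and 35196993 to 39431030 in the sedentary hearts (median 37754308), so the training libraries were shallower (p = 0.0238, exact permutation test, two-sided).

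The proteasome is the protease that degrades most ubiquitin-tagged proteins of the cytosol and nucleus. Its core particle is a barrel of stacked rings, in which alpha subunits form the gated outer rings and beta subunits the inner rings with the catalytic sites. The regulatory particle caps the barrel, where its non-ATPase subunits bind the ubiquitin chain and cut it off and its ATPase ring unfolds the protein and feeds it into the core. Other caps, the PA28 complexes and PA200, open the gate without ATP. In cardiomyocytes the proteasome turns over sarcomere proteins that muscle ubiquitin ligases have tagged.

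Psme4, which codes for PA200, was the only proteasome gene whose transcript level differed between the groups at a false discovery rate (FDR) below 0.1, and it fell. Of the 51 members, 50 had enough counts to be tested, 0 rose and 1 fell (edgeR quasi-likelihood test, Benjamini-Hochberg adjustment over 15454 genes). Across all genes tested, 2.75% rose and 4.26% fell, 7.01% together. When libraries were scaled by their totals alone this balance turned, with 1029 genes higher and 339 lower, beside 425 and 659 in the main fit. At an unadjusted p below 0.05, 9 members were lower and 2 higher in training hearts, 11 of 50 beside 20.0% of all genes, and the DESeq2 test called 0 members higher and 3 lower, Psme4, Psmd8 and Psma1, at a background of 3.99% of all genes higher and 5.54% lower. Without training heart 2 edgeR called 3 members lower (Psme4, Psma1 and Psmd3), beside 4.55% of all genes, and without sedentary heart 1 also 3 (Psme4, Psmd8 and Psmb2), beside 5.37%. Psma1, Psmd3 and Psmb2 are named here after their values were seen. The median log2 fold change over the tested members was -0.022, beside 0.00 over all genes tested. For 43 of the 50 members the 95% interval of the change lay within 1.25-fold in either direction, as for 57.7% of all genes. The median standard error (SE) of the log2 fold change was 0.05 for the members and 0.08 for all genes.

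**Figure D1:**
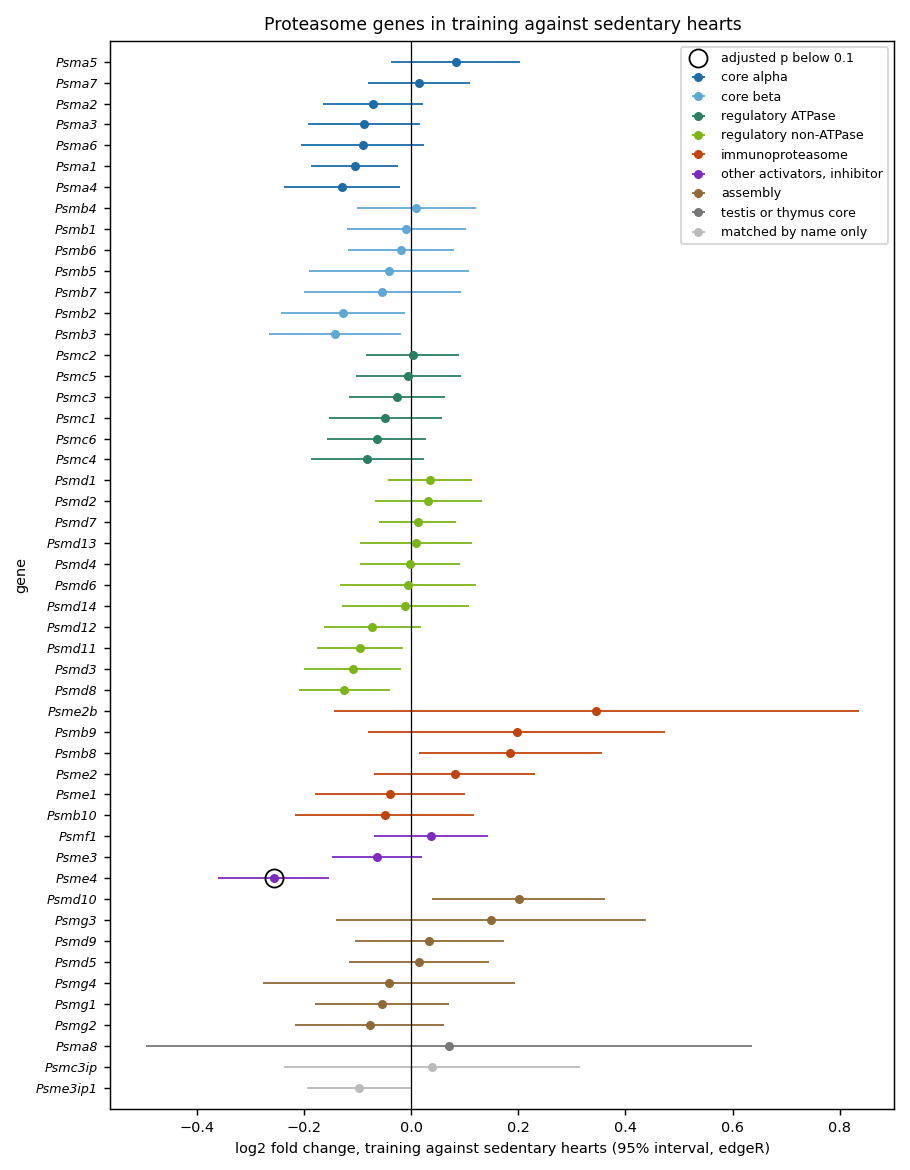
Log2 fold change (training against sedentary hearts, x axis) of each of the 50 tested proteasome genes (y axis), coloured by role, with its 95% interval from the edgeR fit of 5 training and 5 sedentary hearts. The circled point, Psme4 at -0.26, is the only gene with an adjusted p below 0.1, and the intervals are widest for the rarely transcribed Psme2b and Psma8.

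The promoter of Psme4 is shown with those of Psmd8, the subunit gene closest to the threshold, and Psmb5, the gene of a catalytic subunit, because Psme4 and Psmd8 share a short motif and Psmb5 carries a different one. Each is the 250 bases before the RefSeq transcription start, taken from a RefSeq table of the earlier assembly GRCm38.p6, and each was found once, without a mismatch, on its chromosome of GRCm39. The windows are chr11:30721525-30721774 on the plus strand for Psme4, chr7:28880099-28880348 on the minus strand for Psmd8 and chr14:54855453-54855702 on the minus strand for Psmb5. GENCODE M39 starts these genes further upstream, so the last 50, 37 and 29 bases of the windows lie within the annotated genes. Capitals mark the motif matches.
Psme4: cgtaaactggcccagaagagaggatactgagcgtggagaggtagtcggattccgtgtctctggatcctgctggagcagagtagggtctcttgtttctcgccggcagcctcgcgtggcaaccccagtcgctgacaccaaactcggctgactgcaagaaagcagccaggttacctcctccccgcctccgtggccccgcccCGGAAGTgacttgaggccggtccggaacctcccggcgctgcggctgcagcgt
Psmd8: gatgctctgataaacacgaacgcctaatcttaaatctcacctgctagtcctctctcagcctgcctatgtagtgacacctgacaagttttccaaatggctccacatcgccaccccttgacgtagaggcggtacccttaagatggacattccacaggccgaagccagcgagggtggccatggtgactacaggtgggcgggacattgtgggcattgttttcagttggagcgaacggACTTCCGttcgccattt
Psmb5: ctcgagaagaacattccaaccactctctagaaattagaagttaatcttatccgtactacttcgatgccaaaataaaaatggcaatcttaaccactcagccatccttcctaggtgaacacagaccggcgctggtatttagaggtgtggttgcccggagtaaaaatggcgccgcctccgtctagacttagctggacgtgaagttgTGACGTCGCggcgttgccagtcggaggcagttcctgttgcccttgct

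The letters searched on both strands were CGGAAGT, a core bound by ETS factors, TGACNNNGC, the antioxidant response core that NFE2L1 and NFE2L2 bind with small MAF partners, and CCAAT, bound by NF-Y. CGGAAGT was chosen after the Psme4 window had been read. Psme4 is itself counted among the members with the motif, so their share is not a test. It stood in the Psme4 window at position -52 from the start, and in the Psmd8 window at position -17 on the opposite strand, where it reads ACTTCCG. It was found in 9 of the 43 members with a promoter in the table (20.9%), beside 5.58% of 27025 genes, and these were Psma4, Psmc1, Psmc2, Psmd6, Psmd8, Psmd12, Psmd13, Psmd14 and Psme4. TGACNNNGC stood in 5 of the 43 (11.6%, beside 11.5% of all genes), with the match in Psmb5 at position -47. CCAAT stood in 16 of the 43 (37.2%, beside 37.5%) and in none of the 3 windows printed. The median GC content was 57.6% in the member promoters and 52.4% in all promoters. A match describes the letters and is not evidence of binding.

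PA200, the product of Psme4 (ENSMUSG00000040850, chr11:30721725-30830376 of GRCm39, plus strand), is a single large protein that caps the core particle and is known for the degradation of acetylated histones. Counts per 1000000 (CPM), scaled by TMM, were 364.5, 407.5, 389.3, 384.6 and 415.7 in training hearts 1 to 5 and 488.2, 479.8, 479.8, 467.9 and 427.9 in sedentary hearts 1 to 5. Every training heart lay below every sedentary heart, which was true of 2.94% of all genes tested, and the nearest hearts of the 2 groups were training heart 5 and sedentary heart 5. The mean was 392.3 ± 20.1 CPM in training and 468.7 ± 23.9 CPM in sedentary hearts (SD, n = 5 each), a log2 fold change of -0.26 (SE 0.05, 95% interval -0.36 to -0.15, edgeR adjusted p = 0.0173), that is, a level 16.3% lower. The count behind these values was 12356 to 19653 reads per heart. The gene was below the threshold in each of 21 alternative fits, with log2 fold changes of -0.29 to -0.20 and adjusted p-values of 5.43e-05 to 0.0771. Per transcript length the groups overlapped, at 57.6 to 72.1 transcripts per 1000000 (TPM) in training and 66.1 to 82.8 TPM in sedentary hearts, while the RSEM expected counts in the edgeR fit gave -0.26 (adjusted p = 0.0219).

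The other activators and the inhibitor did not pass the test. Psme3, which codes for the nuclear activator PA28-gamma, had 62.2 to 68.0 CPM in training and 64.6 to 69.6 CPM in sedentary hearts (log2 fold change -0.06, SE 0.04, edgeR adjusted p = 0.401). Psmf1 codes for PI31, first described as an inhibitor of the core particle, and had 19.8 to 22.3 and 19.2 to 20.8 CPM (log2 fold change 0.04, SE 0.05, adjusted p = 0.727). Psme1 and Psme2 code for the PA28 alpha and beta chains, which form a ring-shaped cap together and are induced by interferon-gamma. Their log2 fold changes were -0.04 (SE 0.07) and 0.08 (SE 0.07), with overlapping groups and adjusted p-values of 0.794 and 0.566. Psme1 and Psme2 are neighbours on chromosome 14, 2860 bases apart.

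**Figure D2:**
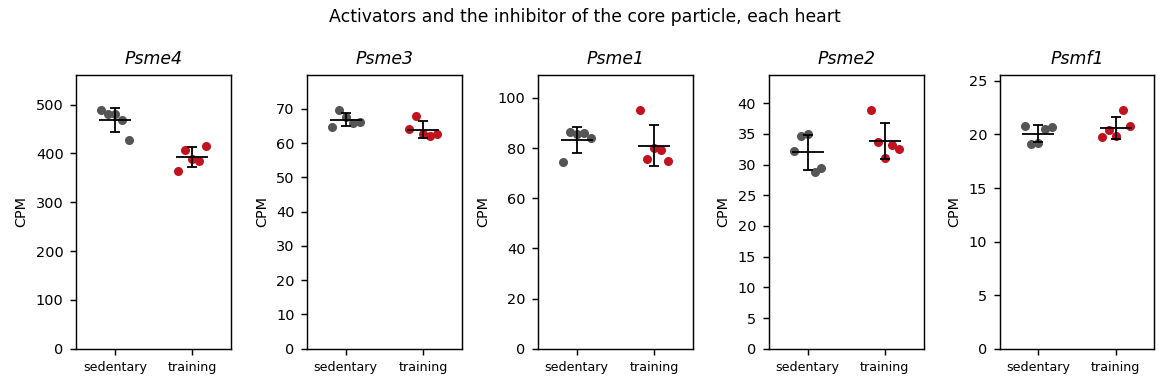
CPM (y axes, each from 0) of Psme4, Psme3, Psme1, Psme2 and Psmf1 in each of 5 sedentary (grey) and 5 training (red) hearts, with the mean and SD of each group as a black bar. The Psme4 values of training hearts (364.5 to 415.7 CPM) all lie below those of sedentary hearts (427.9 to 488.2 CPM), and the groups of the other 4 genes overlap.

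The heart is a mixture of cell types, and in RNA from whole hearts fewer cells of a type and less RNA per cell cannot be told apart. Calls in the marker lists stand beside 2.75% of all genes higher and 4.26% lower. Of the 6 cardiomyocyte markers, 0 rose and 1, the cardiac actin gene Actc1, fell (log2 fold change -0.38, edgeR adjusted p = 0.0220). Their summed level, of which Myh6 held the most, was 52334 ± 1175 CPM in training and 57718 ± 2700 CPM in sedentary hearts (SD, n = 5 each), with overlapping groups. Of 9 atrial markers, Sln and Dkk3 rose and Kcna5 fell, and the sum, led by Nppa, was 8505 ± 1289 CPM in training and 6297 ± 2108 CPM in sedentary hearts. In an edgeR fit that carried the mean atrial marker level as a covariate, Psme4 had a log2 fold change of -0.27 (adjusted p = 0.0771). Of 6 endothelial markers, Tie1 fell, and the sum, led by Pecam1, was 808 ± 28.7 CPM in training and 862 ± 21.2 CPM in sedentary hearts, with no overlap between the groups. Among 6 fibroblast markers Pdgfra rose (sums 1178 and 1066 CPM, led by Dcn), and among 5 mural markers Rgs5 fell (sums 822 and 878 CPM, Rgs5 the most abundant). Of the 4 adipocyte markers tested and the 5 erythroid markers, 0 passed the test, with wide intervals (median log2 fold changes 0.86 and -0.43, median SE 0.54 and 0.27). Ucp1 missed the count filter, with 0 to 204 counts per heart, the most in training heart 4. Adipocyte markers summed to 32.7 CPM in training and 18.5 CPM in sedentary hearts (led by Cidec), and erythroid markers to 75.8 and 101 CPM (led by Hbb-bs). No gene of these 7 lists was at 0 in every heart. The part of the cardiomyocyte, endothelial, fibroblast and mural markers in the Psme4 result was not tested.

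The 14 genes of the core particle showed no called change. Of the 7 alpha subunits, 5 had log2 fold changes below 0 and 2 above, with a median of -0.089 that stayed below 0 in every alternative fit. The lowest was Psma4 (-0.13, SE 0.05, edgeR adjusted p = 0.177), with 53.1 to 61.1 CPM in training and 57.9 to 66.3 CPM in sedentary hearts. The highest was Psma5 (0.08, SE 0.06, adjusted p = 0.448), with 24.8 to 30.0 and 23.8 to 26.5 CPM. Both pairs of groups overlapped. Psma5 was at 0.036 without training heart 1 (edgeR adjusted p = 0.739). By mean TPM, Psma2, Psma3, Psma5, Psma6 and Psma7 were higher in training hearts, and Psma1 and Psma4 were lower. The direction of most alpha genes thus depended on the measure, and the cause was not tested.

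Of the 7 beta subunits, 6 lay below 0 and 1 above, with a median log2 fold change of -0.040 that turned to 0.011 when libraries were scaled by their totals alone. That median was -0.083 to -0.0037 when 1 heart was left out. Psmb3, a non-catalytic subunit, was lowest (-0.14, SE 0.06, edgeR adjusted p = 0.191), and Psmb4, also non-catalytic, was highest (0.01, SE 0.05, adjusted p = 0.942). The 3 catalytic subunits are Psmb5 with chymotrypsin-like, Psmb6 with caspase-like and Psmb7 with trypsin-like activity. Their log2 fold changes were -0.04 (SE 0.07), -0.02 (SE 0.05) and -0.05 (SE 0.07), with adjusted p-values of 0.801, 0.866 and 0.715. Psmb7 was at -0.12 without training heart 1 and at -0.14 when reads of both strands were counted, and it did not pass in either fit (edgeR adjusted p = 0.200 and 0.310). By mean TPM, Psmb1, Psmb4, Psmb5, Psmb6 and Psmb7 were higher in training hearts, and Psmb2 and Psmb3 were lower. All 14 core genes had a 95% interval of the edgeR fold change within 1.25-fold.

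The 17 genes of the regulatory particle gave 0 calls. The 6 ATPase genes ranged from -0.08 for Psmc4 (SE 0.05, edgeR adjusted p = 0.382) to 0.00 for Psmc2 (SE 0.04, adjusted p = 0.979), with a median of -0.037 that became 0.015 under scaling by library totals. The 11 non-ATPase genes ranged from -0.12 for Psmd8 to 0.04 for Psmd1 (SE 0.04, adjusted p = 0.644), with a median of -0.0054 that became 0.046 under scaling by library totals, which moved the median of all genes to 0.053. Without 1 heart the non-ATPase median was -0.032 to 0.016. Psmd1 codes for a large scaffold subunit on which ubiquitin receptors dock. All 17 intervals lay within 1.25-fold.

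Psmd8, a subunit of the lid (chr7:28873612-28880135, minus strand), came closest to the threshold after Psme4. Its CPM values were 73.5, 75.2, 73.1, 78.2 and 72.3 in training hearts 1 to 5 and 77.8, 83.6, 79.9, 79.2 and 85.3 in sedentary hearts 1 to 5. Training heart 4 lay above sedentary heart 1, and otherwise the groups were apart. The log2 fold change was -0.12 (SE 0.04, edgeR adjusted p = 0.102), and the gene passed with DESeq2 (adjusted p = 0.0475), with a filter of at least 10 counts in every library (edgeR adjusted p = 0.0926, where 4.74% of all genes were called lower) and without sedentary heart 1 (edgeR adjusted p = 0.0745). The change was smaller when libraries were scaled by their totals alone (-0.071, edgeR adjusted p = 0.302) and with the atrial covariate (-0.077, adjusted p = 0.534).

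**Figure D3:**
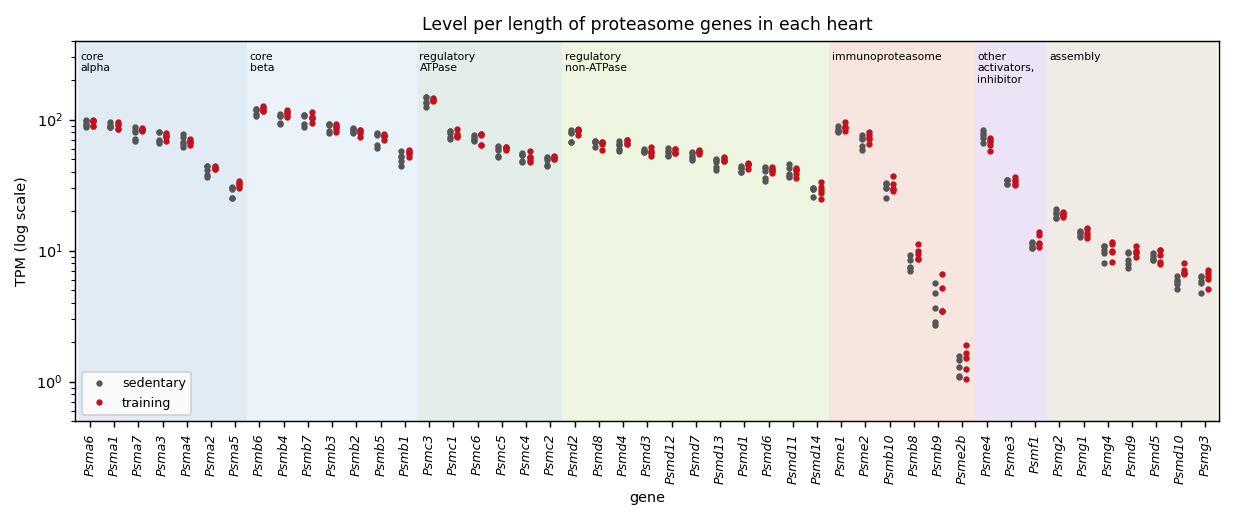
Level per transcript length (TPM, log scale, y axis) of 47 proteasome genes (x axis) in each of 5 sedentary (grey) and 5 training (red) hearts, by role and in order of the mean. The core and regulatory subunits lie between a mean of 29.0 and 140 TPM, whereas the inducible subunits Psmb8 and Psmb9 and the 7 assembly factors have means below 20 TPM.

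Levels of different genes can be compared only per transcript length. The mean over the 10 hearts ranged among the 14 core genes from 30.1 TPM for Psma5 to 118 TPM for Psmb6, a 3.93-fold range, and among all 31 core and regulatory genes from 29.0 TPM for Psmd14, the deubiquitinase of the lid, to 140 TPM for the ATPase gene Psmc3, a 4.83-fold range. Psme4 had 70.7 TPM, close to the median of 66.0 TPM of these 31 genes. Psme3 and Psmf1 were lower at 33.7 and 11.5 TPM. The 7 assembly factors lay between 6.02 TPM (Psmg3) and 19.0 TPM (Psmg2). Psma8, the alpha subunit of the testis, had 0.437 TPM. Psmb11, the beta subunit of thymic cortical epithelium, had 0 counts in each of the 10 hearts, which allows up to 3 counts, or 0.102 CPM in the smallest library (counting error only). Psmc3ip, a meiotic recombination factor, and Psme3ip1, a partner of PA28-gamma, matched the rule by name alone and had 1.90 and 13.6 TPM. They did not pass the test (edgeR adjusted p = 0.900 and 0.248).

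The core and regulatory genes varied together from heart to heart. Each group of genes was summarised by the mean of its centred log2 CPM values, and for the 14 core genes this was 0.10, 0.00, -0.06, -0.08 and -0.11 in training hearts 1 to 5 and 0.03, 0.08, 0.07, -0.01 and -0.03 in sedentary hearts 1 to 5. Training heart 1 was the highest and training heart 5 the lowest of all 10, so that the training hearts enclosed the sedentary ones. The 17 regulatory genes gave 0.03, 0.03, -0.06, -0.02 and -0.06 in training and 0.02, 0.08, 0.05, -0.03 and -0.03 in sedentary hearts. After the group mean was removed, the median Pearson correlation over the 10 hearts was 0.70 for pairs of core genes (88 of 91 pairs above 0) and 0.53 for pairs of regulatory genes (117 of 136 pairs above 0). For Psme4 with the 31 core and regulatory genes the median was 0.03 (16 of 31 above 0). These correlations describe 10 libraries, and genes of 1 library share its depth and composition. Transcripts of the tested members had a median length of 1255 bases, and those of Psme4 had 6173 bases. The part of transcript length in these correlations was not tested. Pairs of genes outside the proteasome were not measured, so it was not tested whether the members vary together more than other genes.

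**Figure D4:**
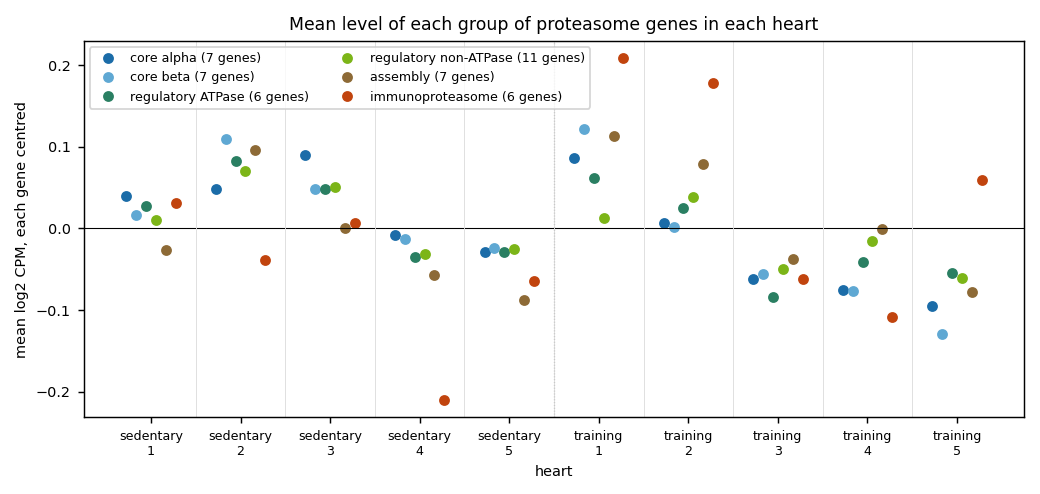
Mean log2 CPM of 6 groups of proteasome genes, each gene centred on its mean over the 10 hearts (y axis), in each sedentary and training heart (x axis), 1 point per group of genes. Core beta ranges most of the 4 core and regulatory groups, from -0.13 in training heart 5 to 0.12 in training heart 1, and the immunoproteasome genes spread most, from -0.21 in sedentary heart 4 to 0.21 in training heart 1.

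The immunoproteasome is formed when interferon-inducible catalytic subunits replace the standard ones, and it produces peptides for presentation on MHC class I. The group of 6 genes held Psmb8, Psmb9 and Psmb10 of the catalytic sites, and also the PA28 genes Psme1 and Psme2 and Psme2b. Of these 6 genes 0 passed the test, and their median log2 fold change was 0.13. Leaving out 1 heart gave medians of 0.076 to 0.176. Psmb8 and Psmb9, which lie 9951 bases apart in the MHC region of chromosome 17, had log2 fold changes of 0.19 (SE 0.08, edgeR adjusted p = 0.212) and 0.20 (SE 0.13, adjusted p = 0.429). With 1 heart left out, Psmb8 was at 0.137 to 0.240 and Psmb9 at 0.105 to 0.259. Psmb10 on chromosome 8 was at -0.05 (SE 0.08, adjusted p = 0.782). Psme2b, a near copy of Psme2, had 16 to 41 reads per heart and a log2 fold change of 0.35 (SE 0.23, adjusted p = 0.434), and its count is uncertain because it shares sequence with Psme2 and overlaps 9930111J21Rik1 on the same strand. With RSEM expected counts its log2 fold change was 0.096 (edgeR adjusted p = 0.830), and without 1 heart it was 0.23 to 0.49.

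The share of inducible over standard subunit was taken per catalytic site as the ratio of TPM values. Psmb8 stood at 11.1, 14.9, 13.1, 12.4 and 12.6% of Psmb5 in training hearts 1 to 5 and at 11.2, 9.35, 12.0, 10.9 and 12.2% in sedentary hearts 1 to 5. Training heart 1 lay among the sedentary hearts and the other 4 above all of them. The mean was 12.8 ± 1.37% in training and 11.1 ± 1.12% in sedentary hearts (SD, n = 5 each), a difference of 0.21 (SE 0.10) in the log2 ratio, with an exact two-sided permutation p of 0.0476 that became 0.143 after adjustment over the 3 sites. Without training heart 1 the difference was 0.26 (exact p = 0.0159, adjusted p = 0.0476). Over all fits without 1 heart it was 0.15 to 0.26, and over all alternatives the exact p was 0.0159 to 0.127 and the adjusted p 0.0476 to 0.381. Psmb9 stood at 3.64 ± 1.12% of Psmb6 in training and 3.41 ± 1.10% in sedentary hearts (log2 difference 0.10, SE 0.28, exact permutation p = 0.667, adjusted p = 0.929). Psmb10 stood at 30.5 ± 4.61% of Psmb7 and 30.1 ± 3.82% (log2 difference 0.01, SE 0.12, exact permutation p = 0.929, adjusted p = 0.929). The smallest p that 5 against 5 hearts allow is 0.00794.

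**Figure D5:**
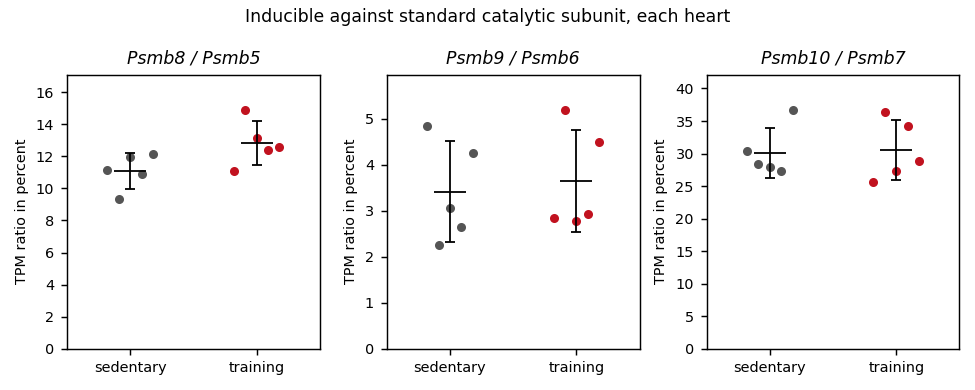
TPM of the inducible catalytic subunit in percent of the standard subunit of the same site (y axes, each from 0) in each of 5 sedentary (grey) and 5 training (red) hearts, with the mean and SD of each group as a black bar. The means are 12.8 and 11.1% for Psmb8 over Psmb5 in training and sedentary hearts, 3.64 and 3.41% for Psmb9 over Psmb6, and 30.5 and 30.1% for Psmb10 over Psmb7.

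Genes of antigen presentation were measured beside the immunoproteasome. Of 10 genes, among them those of the class I chains, the peptide transporter and the interferon-response factors, 0 passed the test in either direction, with a median log2 fold change of 0.04 beside 0.00 over all genes. The 8 macrophage markers, led by Lyz2, summed to 422 ± 34.9 CPM in training and 436 ± 59.6 CPM in sedentary hearts, and 0 of them passed the test. The 10 lymphocyte markers summed to 10.2 ± 1.98 and 11.0 ± 4.89 CPM (led by Ptprc), with 9 of the 10 genes under 1 CPM and none at 0 in every heart.

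The assembly factors, which help build the particles and leave before they are complete, also gave 0 calls. The 4 chaperones Psmg1 to Psmg4 assist the alpha ring, and Psmd5, Psmd9 and Psmd10 escort the ATPase ring. The median log2 fold change of the 7 genes was 0.015, and it changed sign between fits (-0.017 to 0.070). Psmg2 was lowest at -0.08 (SE 0.06, edgeR adjusted p = 0.555). Psmd10, which codes for gankyrin, was highest at 0.20 (SE 0.08, adjusted p = 0.156). It had 9.06, 10.0, 8.14, 9.12 and 7.99 CPM in training hearts 1 to 5 and 7.63, 7.83, 8.38, 7.14 and 7.59 CPM in sedentary hearts 1 to 5, where sedentary heart 3 lay above training hearts 3 and 5. In TPM the groups did not overlap, at 6.62 to 8.06 in training and 5.13 to 6.42 in sedentary hearts, and training hearts lay above all sedentary ones for 3.99% of all genes tested. The gene passed only when libraries were scaled by their totals alone (edgeR adjusted p = 0.0893), a scaling under which 6.66% of all genes were called higher.

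Proteasome genes outside the symbol rule gave 0 calls. Of 16 further subunits, shuttles and cofactors listed, 15 could be matched and tested and 0 passed, with a median log2 fold change of -0.05. Pomp, the chaperone that joins the core particle together, was at -0.05 (SE 0.05, edgeR adjusted p = 0.690), the ubiquitin receptor gene Adrm1 at -0.10 (SE 0.06, adjusted p = 0.350) and the small lid subunit gene Sem1 at -0.09 (SE 0.09, adjusted p = 0.633).

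Nfe2l1 codes for the membrane-bound transcription factor that raises the subunit genes when proteasome activity falls. Its values were 523.2, 565.7, 546.7, 570.8 and 563.0 CPM in training hearts 1 to 5 and 582.3, 617.4, 586.7, 605.3 and 590.1 CPM in sedentary hearts 1 to 5. Every training heart lay below every sedentary heart in CPM, as for 2.94% of all genes tested. In TPM the groups overlapped (150.9 to 191.9 in training, 189.8 to 207.0 in sedentary hearts). The change of -0.11 (SE 0.04) did not pass the edgeR test (adjusted p = 0.150). It passed with DESeq2 (adjusted p = 0.0425) and in edgeR after a trend with gene length was removed (adjusted p = 0.0792). Scaling by library totals gave -0.052 (edgeR adjusted p = 0.465) and the atrial covariate -0.082 (adjusted p = 0.513). Of the 10 genes listed as regulators of proteasome transcription, 0 passed in the edgeR fit, with a median of 0.00.

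Upstream of the proteasome, 2 of 12 muscle ubiquitin ligase genes fell and 0 rose, beside 4.26% and 2.75% of all genes. Asb2 codes for the substrate receptor of a cullin ligase that tags filamins in muscle. It had 394.5, 411.9, 401.5, 397.9 and 405.1 CPM in training hearts 1 to 5 and 429.7, 478.5, 474.4, 493.0 and 487.3 CPM in sedentary hearts 1 to 5. The groups did not overlap, as for 2.94% of all genes tested that were lower in this way (log2 fold change -0.23, SE 0.04, edgeR adjusted p = 0.0161). Trim54, which codes for MuRF3 on the microtubules and Z-discs of muscle, had 218.3 to 238.8 CPM in training and 246.3 to 267.0 CPM in sedentary hearts (-0.16, SE 0.04, adjusted p = 0.0405), while in TPM its groups overlapped. With that atrial covariate in the fit neither gene passed (log2 fold change -0.19, edgeR adjusted p = 0.140 for Asb2 and -0.15, adjusted p = 0.225 for Trim54), and the calls over all genes went from 1084 to 150. Trim54 also missed the threshold when libraries were scaled by their totals alone (adjusted p = 0.165) and without sedentary heart 3 (adjusted p = 0.122).

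The atrophy ligase genes did not pass the main test. Trim63, which codes for MuRF1, had 172.7 ± 11.4 CPM in training and 176.6 ± 15.8 CPM in sedentary hearts (SD, n = 5 each; log2 fold change -0.03, SE 0.06, edgeR adjusted p = 0.823). Fbxo32, which codes for atrogin-1, had 192.5 to 239.4 CPM in training and 174.7 to 217.2 CPM in sedentary hearts (0.16, SE 0.07, adjusted p = 0.196), and it passed when libraries were scaled by their totals alone (edgeR adjusted p = 0.0881). Of the 6 ubiquitin and E1 enzyme genes and the 11 genes of the unfoldase p97 and its cofactors, 0 passed, with medians of -0.01 and 0.00.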

How the data were processed

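The authors aligned single-end reads of directional poly-A libraries to GRCm39 (Ensembl 107) with STAR 2.7.10a and deposited its gene counts for each strand setting. They also deposited RSEM 1.3.3 expected counts and TPM values, for which the strand setting is not given in the sources used here. The reverse-strand counts, to which about 95% of assigned reads belonged, were fitted with edgeR 4.0.16 (filterByExpr, TMM, quasi-likelihood F test, Benjamini-Hochberg adjustment, FDR below 0.1, the threshold of the study's methods). No per-sample column was left unassigned. Gene names and positions came from GENCODE M39, which matched 56017 of 56748 identifiers. TPM values served for levels between genes and for the ratios, which were tested with exact permutations of the 10 hearts. DESeq2 1.42.0, other scalings, filters, counts and covariates, the replicate block and fits without 1 heart were alternatives. RSEM expected counts were rounded. The fit was tested on simulated data, and no outcome of that test is quoted here. Named were every called member, the highest and lowest member of each group, the 6 catalytic subunits, called genes of the related ubiquitin-proteasome lists, and Nfe2l1, Pomp, Adrm1, Sem1, Trim63 and Fbxo32. Paaf1 was not matched and was not analysed here. Members and lists were chosen with earlier results of these data known. Each library is 1 animal per the labels, and pairs of libraries within a group differed beyond counting noise (chi-square per degree of freedom 6.16 to 27.4). Pairs with training heart 1 gave 18.34 to 24.68, and the other training pairs 6.16 to 11.55. Sedentary pairs gave 8.465 to 27.43, the highest between sedentary hearts 1 and 5.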

Additional observations from a re-analysis of the deposited data

Results flagged for a closer look

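In the groups of 5 hearts, 8 values of proteasome genes stood far from the other 4 by Dixon's gap test, of 136 groups examined (58 genes, 7 group means and 3 ratios), in which chance marks about 1 in 20. Training heart 1 held 4 of them. In that heart Psmb5 was at 28.5 CPM, beside 24.5 to 25.5 CPM in the other training hearts, Psmb7 was at 121 CPM (others 92.6 to 100.4), Psmb1 at 90.9 CPM (76.2 to 79.6) and Psme1 at 95.1 CPM (74.8 to 80.2). In sedentary heart 4 Psmb10 was at 24.4 CPM, beside 27.9 to 28.9 CPM in the other sedentary hearts, and Psmd7 at 76.3 CPM (79.3 to 80.5). In sedentary heart 1 Psme2b was at 0.894 CPM (0.612 to 0.672) and Psme1 at 74.3 CPM (83.8 to 86.5).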

How the results depend on the processing

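The naming rule gave 27 genes and leaves out the cell type markers. Of these 27, 21 kept their side of the threshold in every alternative that gave an adjusted p. No call among the 27 reversed direction, and DESeq2 gave no adjusted p for Psme2b. Across all genes 1084 were called, and 150 with a covariate for the mean atrial marker level, 505 at an FDR below 0.05, 1473 with DESeq2, and 512 to 1490 when 1 heart was left out. Members called higher numbered 0 in all fits but the scaling by library totals (1). Members called lower numbered 3 with DESeq2, 2 with at least 10 counts in every library, and 1 to 3 when 1 heart was left out. Scaling by library totals gave a median log2 fold change of 0.046 for the non-ATPase subunits and -0.0097 for the other activators and inhibitor, and the atrial covariate gave -0.024 for the latter. The difference in the Psmb8 to Psmb5 ratio was 0.15 to 0.26 when 1 heart was left out. The cause of these shifts was not tested. Same-numbered hearts of the 2 groups did not deviate together (correlations -0.10 to 0.16, and 1 of 5 training hearts correlated best with its own number). With the mouse number as a replicate block, 1137 genes and the same 1 member were called, and Fbxo32 passed (edgeR adjusted p = 0.0742). The Psmb8 to Psmb5 ratio paired by number had an exact permutation p of 0.125. Pairing allows fewer assignments than the unpaired test, so this p cannot be compared with the unpaired one. Genes with few reads, such as Psme2b and Psma8, had intervals too wide to show changes of the size seen in Psme4.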
